A study of Mus musculus with 8 samples.

Results

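The nuclear genes of oxidative phosphorylation were measured in stem and progenitor cells that had been sorted from the bone marrow of healthy mice and of mice with a CML-like disease (chronic myeloid leukaemia). Members were taken by symbol as all rows that begin with Nduf (complex I), Sdha to Sdhd (complex II), Uqcr (complex III), Cox4 to Cox8 (complex IV) or Atp5 (complex V). This gave 91 of the 20207 gene rows: 42 for complex I, 5 for complex II, 7 for complex III, 19 for complex IV and 18 for complex V. By textbook function, 73 of them were classed as structural subunits, 10 as tissue or related isoforms and 5 as assembly factors. The other 3 were placed in none of these classes.

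Oxidative phosphorylation is the pathway by which mitochondria make ATP. Complex I (NADH dehydrogenase) and complex II (succinate dehydrogenase, also an enzyme of the TCA cycle) pass electrons to ubiquinone, complex III passes them to cytochrome c, and complex IV (cytochrome c oxidase) passes them to oxygen. The protons moved across the inner membrane by complexes I, III and IV drive complex V, the ATP synthase. All complexes but II also hold subunits encoded by mitochondrial DNA, whose transcripts were not analysed here. Haematopoietic stem cells (HSCs) are known for relying more on glycolysis than their dividing progeny do.

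RNA sequencing gave 8 libraries, each given as RPKM, read counts scaled to transcript length and to the mapped reads of the library. KLS+ stands for cKit+Lineage-Sca-1+ cells. Both stem cell gates were CD48-CD135- within KLS+, the long-term (LT) gate being CD150+ and the short-term (ST) gate CD150-. The KLS- progenitors were cKit+Lineage-Sca-1- cells. Normal mice gave 2 LT-HSC libraries, 1 ST-HSC library and 1 KLS- library, and CML-affected mice gave 2 LT-CML, 1 ST-CML and 1 CML-KLS- library. The CML-affected mice of the study's methods carried both Tal1-tTA and TRE-BCR-ABL1. The tetracycline-controlled transactivator, made in HSCs, switches on BCR-ABL1 once doxycycline (DOX) is withdrawn, and cells were taken 5 weeks later. The normal mice of the methods were littermates that carried Tal1-tTA alone, whereas the labels give no genotype for them. The labels name C57BL/6 for every library whereas the methods name FVB/N. As ages, the labels give 6 months behind LT-HSC replicate 2, 2 months for the remaining normal libraries and none for the CML-affected mice. The methods give CML-affected and normal mice the same range of ages, in weeks, which the label of 6 months exceeds. By the labels, the spread between the 2 LT-HSC replicates includes a difference of age. A difference of age, genotype, strain background or litter between the groups therefore cannot be told apart from the disease. Nothing in the labels says how many mice were pooled for a library, so the p-values measure the spread between these libraries only.

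An estimate from the smallest values put each library at 17.8 to 23.9 M reads. Ly6a and Slamf1 separated the gates: Ly6a, which encodes Sca-1, was 8.16 and 11.7 RPKM in the KLS- libraries and 72.4 to 152 in the stem cell libraries, and Slamf1, which encodes CD150, was 10.7 to 35.5 in LT and at most 2.87 elsewhere. Over the 5 sorting markers (Slamf1, Cd48, Flt3, Ly6a and Kit), the median RPKM was 14.3 and 10.7 in LT-HSCs and 35.5 and 29.5 in LT-CML. The lowest and highest of these medians are the lowest and highest LT values of Slamf1 alone. The summed RPKM of the 5 markers was 277 and 235.5 in LT-HSCs and 293 and 265 in LT-CML. In the ST libraries, although sorted as CD135-, the gene for CD135 (Flt3) stood at 61.6 and 71.6 RPKM. Among neutrophil markers (8 genes), the summed RPKM differed between LT replicates, at 576 and 4040 in LT-HSCs and 319 and 2711 in LT-CML.

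The genes of the pathway were abundant in all populations. Of the 91, 78 had a mean above 10 RPKM over the 8 libraries, 51 had a mean above 100 RPKM, and 74 were above 10 RPKM in every library. The 87 that passed the minimum for testing (a total above 1 RPKM) had a median mean level of 118 RPKM, against 5.11 RPKM over the 12561 genes that passed it. Of the 4 that did not pass, 3 are isoforms of other tissues and Ndufa4l2 is a relative of Ndufa4. Cox8b and Ndufa4l2 were listed at 0 in all 8 libraries, Cox8c reached at most 0.113 RPKM and Cox7b2 at most 0.277 RPKM.

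Median levels per complex were computed over all rows of a complex in each library. For complex I the median was 91.9 and 85.8 RPKM in the LT-HSC replicates, 83.0 in ST-HSCs and 139.7 in normal KLS- cells. In CML-affected mice LT-CML had 98.1 and 79.5 RPKM, ST-CML 79.3 and CML-KLS- cells 138. Both KLS- libraries thus lay above all stem cell libraries, whereas the LT-HSC and LT-CML replicates overlapped.

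For complex II the median was 112.7 and 90.5 RPKM in LT-HSCs, 122 in ST-HSCs and 180.4 in normal KLS- cells, and 116 and 84.8 in LT-CML, 108 in ST-CML and 174 in CML-KLS- cells. For complex III it was 144 and 143 RPKM in LT-HSCs, 120 in ST-HSCs and 313 in normal KLS- cells, and 120 and 125 in LT-CML, 103 in ST-CML and 343 in CML-KLS- cells. Sdha was the median gene of complex II and Uqcrq that of complex III in every library, so these medians are the levels of single genes. The ratio of KLS- to the LT mean was larger for complex III than for any other complex in normal mice (2.18) and in CML-affected mice (2.80). For complex III this ratio is that of Uqcrq and not of the complex as a set. Gene by gene, the median difference in log2(RPKM + 1) between KLS- and stem cells was lowest for complex III. It was 0.56 there, against 0.76 to 0.82 for the other complexes.

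For complex IV the median was 107 and 65.0 RPKM in LT-HSCs, 74.2 in ST-HSCs and 153 in normal KLS- cells, and 96.3 and 86.8 in LT-CML, 78.3 in ST-CML and 127 in CML-KLS- cells. For complex V it was 179 and 141 RPKM in LT-HSCs, 148 in ST-HSCs and 269.6 in normal KLS- cells, and 161 and 153 in LT-CML, 128 in ST-CML and 285 in CML-KLS- cells. The ratio of normal KLS- to the LT-HSC mean was 1.57 for complex I, 1.77 for complex II, 1.78 for complex IV and 1.68 for complex V.

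The rows of complex IV include 9 genes that are isoforms or no subunit, and 7 of these stayed below 10 RPKM in every library. Over its 11 structural subunits alone, counting Ndufa4, which is now known as a subunit of this complex despite its symbol, the median was 188 to 247 RPKM in the stem cell libraries and 358 and 435 in the KLS- libraries. On that grouping complex IV had the highest median of the complexes in each of the 8 libraries.

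**Figure D1:**
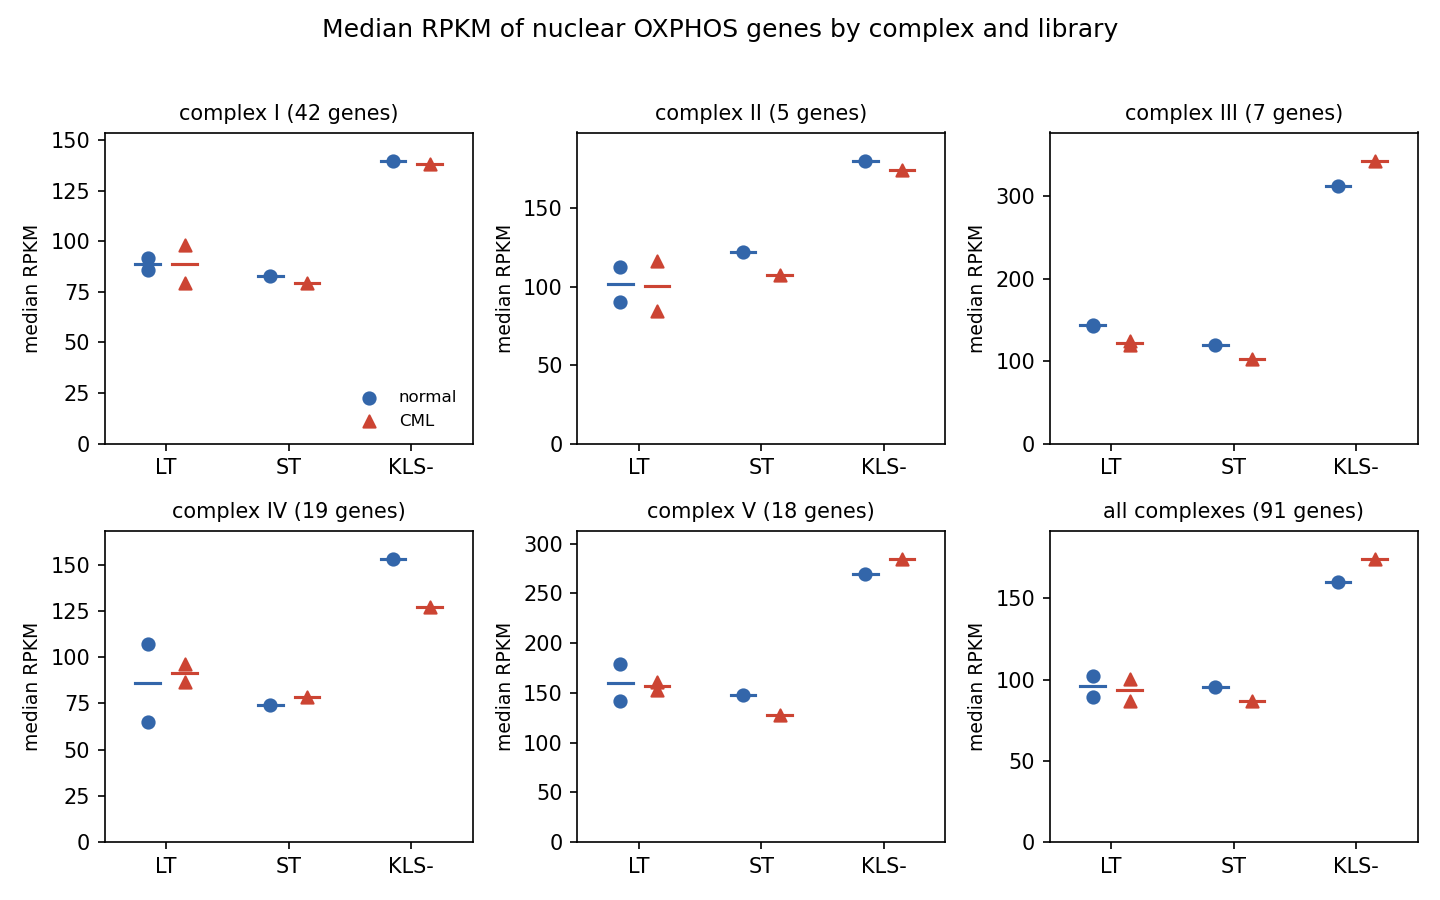
Median RPKM over all rows of each complex (vertical axes, starting at 0) in LT, ST and KLS- cells of normal (circles) and CML-affected mice (triangles), 1 point per library, with a bar at the mean. In each panel both KLS- points lie above all 6 stem cell points. Complex III, whose median gene is Uqcrq throughout, is at 313 and 343 RPKM against 103 to 144.

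Within a complex the transcripts of single subunits were far apart. Over the 6 stem cell libraries, Ndufa3 of complex I was 161 to 337 RPKM, whereas Ndufs1, a core subunit that carries iron-sulfur clusters of the same complex, was 26.99 to 38.5 RPKM. In the F1 part of complex V, the mean over these libraries was 174 RPKM for Atp5a1 and 145 for Atp5b, the alpha and beta subunits that form the catalytic ring, 275 for Atp5c1 (gamma), 68.3 for Atp5d (delta) and 327 for Atp5e (epsilon). The alpha and beta subunits are present in more copies per enzyme than the others, but their transcripts were not the highest. The highest means of all over the 8 libraries were those of Cox4i1 (581 RPKM), the ubiquitous form of subunit 4 of complex IV, Ndufa4 (506), Atp5g2 (449) and Uqcrh (428), the hinge protein of complex III.

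Progenitors differed from stem cells in most of these genes. The comparison asks whether the pathway differs between committed progenitors and the stem cell gates, with disease as a covariate. Between the 2 KLS- libraries and the mean of LT (n = 4) and ST (n = 2), 74 of the 87 genes tested rose in KLS- cells and 1 fell (limma on log2(RPKM + 1), adjusted p under 0.05 after Benjamini-Hochberg adjustment over all 12561 genes). Over all genes tested, 22.2% were called higher and 26.5% lower in the same comparison. The median difference was 0.77 on the log2 scale for the 87 genes (quartiles 0.56 and 0.90) and -0.08 for all genes. In these bulk samples, fewer cells of a type and less RNA per cell cannot be told apart.

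Without reference to a model, 73 of the 87 genes (83.9%) were higher in both KLS- libraries than in all 6 stem cell libraries, a pattern that 21.9% of all genes tested showed. In normal mice 79 (90.8%) were higher in KLS- cells than in all 3 HSC libraries, against 32.3% of all genes. In CML-affected mice 77 (88.5%) were higher in KLS- cells than in all 3 CML stem libraries, against 35.5% of all genes. Taken against 1 stem cell gate at a time, 73 genes were called higher than in LT and 69 higher than in ST cells, and 68 were shared.

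RPKM is relative to the mapped reads, and the summed RPKM of all genes was 444650 and 465696 in the KLS- libraries against 324114 to 372849 in the stem cell libraries. The 91 genes took 3.98% of that sum in both KLS- libraries and 2.84 to 3.24% in the stem cell libraries. With every library scaled to the same sum, an alternative chosen after the data were seen, 61 genes were called higher and 3 lower (Cox7a2l, Uqcrh and Atp5s), with a median of 0.43 against -0.28 for all genes. On that scale 12.4% of all genes were higher and 41.0% lower. Quantile normalization, which forces all libraries onto 1 distribution, left 40 higher and 4 lower (Cox7a2l, Uqcrh, Ndufa6 and Ndufa7), with a median of 0.30 against 0.02 for all genes, and all 40 were among the 74.

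By complex, 38 of 41 genes rose for complex I, 4 of 5 for complex II, 5 of 7 for complex III, 12 of 16 for complex IV and 15 of 18 for complex V. Counting structural subunits alone, all 4 of complex II, all 11 of complex IV and all 15 of complex V rose, with median differences of 0.81, 0.82 and 0.83 on the log2 scale. Of the 36 subunits of complex I, 34 rose, among them all 7 core subunits encoded in the nucleus, with a median of 0.78 for the complex. After quantile normalization 17 of 36, 3 of 4, 3 of 7, 5 of 11 and 7 of 15 subunits of complexes I to V were called higher, and at equal summed RPKM 28, 4, 3, 10 and 13. Of the 74 genes, 7 had a difference below 0 after quantile normalization (Atp5g2, Cox8a, Ndufa3, Ndufa7, Ndufa8, Ndufs4 and Uqcrb). The 7 subunits of complex III had a median of 0.56 and ranged from -0.11 to 1.43.

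**Figure D2:**
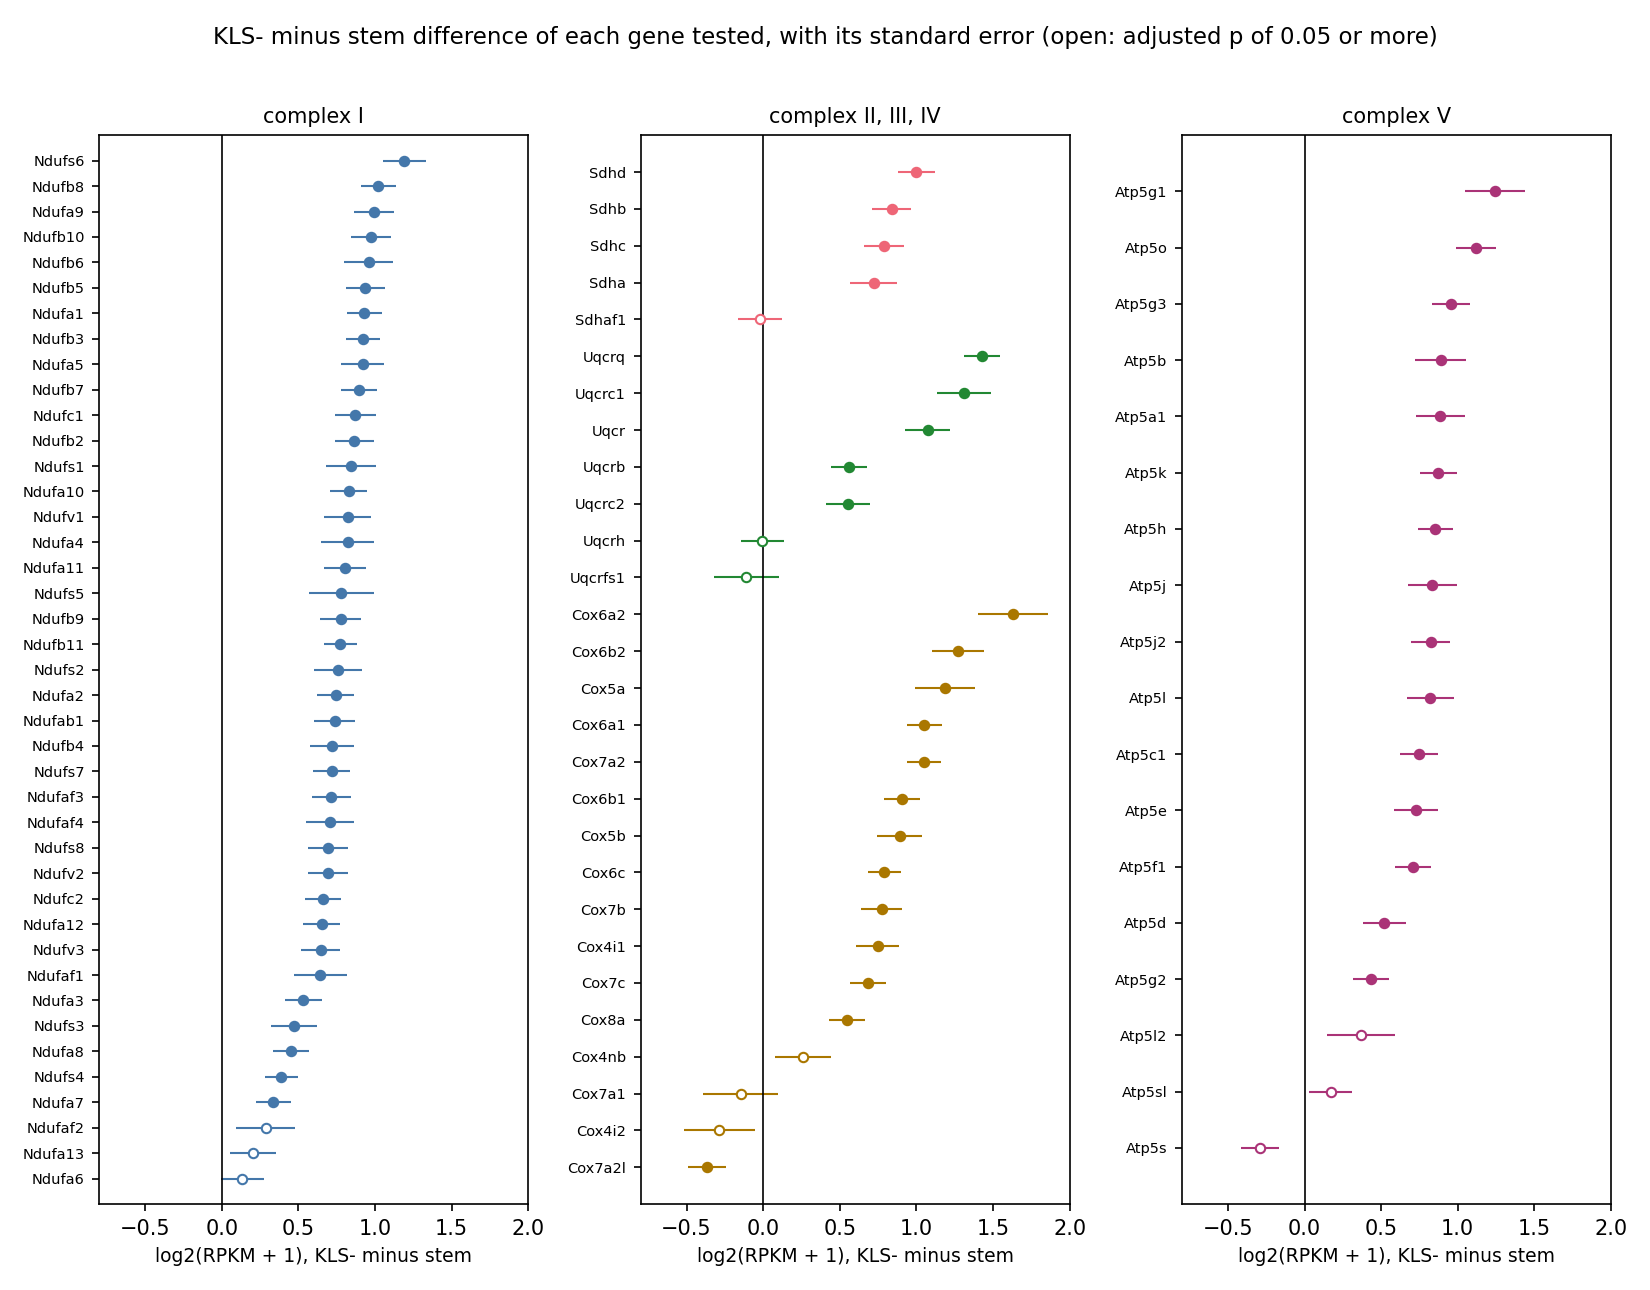
Difference in log2(RPKM + 1) between KLS- and stem cell libraries (horizontal axis) for each of the 87 genes tested, with its standard error, by complex. Filled points passed the adjusted p of 0.05 in limma, and 74 of them lie to the right of 0 and 1, Cox7a2l, to the left.

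Complex III held both the largest rises among abundant genes and subunits with no rise. Uqcrq, a small membrane subunit whose levels are the medians of complex III given above, was 103 to 144 RPKM in stem cells and 313 and 343 in normal and CML KLS- cells. The KLS- libraries stood clear of all others, and the log2 difference was 1.43 (SE 0.12, adjusted p = 5.85e-05 from limma). Uqcrc1, a core protein of the complex, was 69.4 and 51.4 RPKM in LT-HSCs, 71.0 in ST-HSCs, 75.8 and 66.4 in LT-CML and 84.0 in ST-CML, against 130.0 in normal and 241 in CML-KLS- cells. Its log2 difference was 1.31 (SE 0.18, adjusted p = 0.000542 from limma). Uqcr, an older symbol for the smallest subunit, rose by 1.07 (SE 0.15).

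Uqcrh was 411 and 474 RPKM in LT-HSCs, 421 in ST-HSCs, 447 and 345 in LT-CML and 469 in ST-CML, and 423 and 434 RPKM in the KLS- libraries. The KLS- values lay inside the range of the stem cells, with a log2 difference of -0.00 (SE 0.14, adjusted p = 0.980 from limma). Uqcrfs1, the Rieske iron-sulfur protein that carries electrons within the complex, was 14.3 to 26.9 RPKM in stem cells and 13.99 and 23.1 in KLS- cells. Its log2 difference was -0.11 (SE 0.21, adjusted p = 0.683 from limma). The same enzyme was therefore represented by transcripts that rose more than 2-fold and by transcripts whose KLS- and stem cell values overlapped.

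The 4 subunits of succinate dehydrogenase all rose. Sdha, the flavoprotein, was 84.8 to 122 RPKM in stem cells and 180.4 and 174 in normal and CML KLS- cells, and Sdhb, the iron-sulfur protein, was 105 to 131 and 214 and 215 RPKM. The membrane anchors Sdhc and Sdhd were 58.2 to 83.1 and 107 to 137 RPKM in stem cells, and 110.5 and 127, and 241 and 253 RPKM in the KLS- libraries. The log2 differences were 0.72 (SE 0.15), 0.84 (SE 0.13), 0.79 (SE 0.13) and 0.998 (SE 0.12) in that order, and all 4 passed the test (adjusted p of 0.00458 or less from limma). Sdha did not pass after quantile normalization (0.20, adjusted p = 0.196 from limma). Sdhaf1, an assembly factor of this complex, was 0.770 to 1.69 RPKM in all 8 libraries and had a difference of -0.02 (SE 0.15).

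In complex I the largest difference was that of Ndufs6, a zinc-binding accessory subunit, which rose by 1.19 (SE 0.14, adjusted p = 0.000292 from limma). It was 68.3 to 94.9 RPKM in stem cells and 190.1 and 186 RPKM in normal and CML KLS- cells. Ndufb8, an accessory subunit of the membrane arm, rose by 1.0215 (SE 0.11), from 161 to 214 RPKM in stem cells to 324 and 422. Ndufa6, with the lowest difference of the complex, and Ndufa13, named after its value was seen, were the only subunits of complex I that did not pass the test. Ndufa6 was 222 to 303 RPKM in stem cells and 278 and 284 in KLS- cells (log2 difference 0.13, SE 0.14). Ndufa13 was 51.6 to 84.5 RPKM in stem cells and 91.1 and 83.3 in KLS- cells (log2 difference 0.21, SE 0.15).

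In complex V, Atp5g1 was 6.25 to 14.4 RPKM in stem cells and 24.8 and 22.5 RPKM in normal and CML KLS- cells, a log2 difference of 1.24 (SE 0.19, adjusted p = 0.00108 from limma). It is 1 of a set of 3 genes that encode the identical c subunit of the proton-driven ring. Its partner Atp5g2 was far more abundant, with 377 to 454 RPKM in stem cells and 557 and 547 in KLS- cells, and rose by 0.43 (SE 0.12). The third, Atp5g3, went from 118 to 181 RPKM in stem cells to 282 and 292 in KLS- cells and rose by 0.96 (SE 0.12). All 3 were called, and the least abundant gene had the largest difference. Atp5g2 did not pass at equal summed RPKM (0.09) and turned direction after quantile normalization (-0.08, adjusted p = 0.496 from limma), whereas the other two passed in both. Atp5o, which links the F1 part to the stalk, was 227 to 296 RPKM in stem cells and 526 and 585 in KLS- cells (log2 difference 1.12, SE 0.13).

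Several subunits of complex IV exist as a form found in most tissues and a form of heart, muscle, lung or testis. Cox6a1, the general form, was 188 to 253 RPKM in stem cells and 429.9 and 468 in normal and CML KLS- cells, and rose by 1.05 (SE 0.11, adjusted p = 0.000184 from limma). Cox6a2, its heart and muscle form, was listed at 0 in ST-HSC and LT-CML replicate 1, was at most 0.456 RPKM in the other stem cell libraries, and was 1.72 and 3.66 RPKM in the KLS- libraries. Its difference was the largest of all, at 1.63 (SE 0.23, adjusted p = 0.000652 from limma). The highest of these values stood for about 43 reads, the fitted difference depends on the pseudocount, and the gene overlaps Itgad on the other strand.

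Cox6b1 was 242 to 302 RPKM in stem cells and 494 and 541 in KLS- cells, and rose by 0.91 (SE 0.12). Cox6b2, known as the testis form, was 33.6 and 31.9 RPKM in LT-HSCs, 26.9 in ST-HSCs, 48.3 and 33.99 in LT-CML and 33.4 in ST-CML, and 61.1 and 108 RPKM in normal and CML KLS- cells. It rose by 1.27 (SE 0.17, adjusted p = 0.000506 from limma), so both forms rose and the testis form was present in every library. Cox5a, which has no such partner, rose by 1.18 (SE 0.20), from 65.0 to 130 RPKM in stem cells to 153 and 283 in KLS- cells.

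The other pairs showed the general form alone at a high level. Cox4i1 was 436 to 563 RPKM in stem cells and 723 and 944 in KLS- cells (log2 difference 0.75, SE 0.14, adjusted p = 0.00261 from limma, and 0.22 with an adjusted p of 0.118 after quantile normalization), while Cox4i2, the lung form, was 1.54 to 7.04 RPKM in all libraries with a difference of -0.29 (SE 0.23, adjusted p = 0.327 from limma). Cox7a2 rose by 1.05 (SE 0.11), from 97.6 to 130 RPKM in stem cells to 216 and 243 in KLS- cells, while Cox7a1, the heart and muscle form, was 0.685 to 2.17 RPKM in all libraries with a difference of -0.15 (SE 0.24). Cox7b rose by 0.77 (SE 0.13) and Cox8a by 0.55 (SE 0.12), which became -0.04 after quantile normalization. Ndufa4 was 331 to 667 RPKM in stem cells and 815 and 692 in KLS- cells, with the ST-HSC library the highest of the stem cells, and rose by 0.82 (SE 0.17), but did not pass after quantile normalization (0.32, adjusted p = 0.102 from limma). Atp5l2, an isoform relative of the ATP synthase subunit Atp5l, was 1.31 to 3.60 RPKM in all libraries and had a difference of 0.37 (SE 0.22).

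Cox7a2l, a relative of Cox7a2 that joins complexes III and IV into supercomplexes, was the only gene called lower in KLS- cells. It was 187 and 237 RPKM in LT-HSCs, 229 in ST-HSCs, 147 and 156 in LT-CML and 159 in ST-CML, and 161 and 127 RPKM in normal and CML KLS- cells. Each KLS- value was below all stem cell values of the same disease state, but across disease states they overlapped. The difference was -0.37 (SE 0.13, adjusted p = 0.0383 from limma), and it did not pass against LT or ST cells alone (-0.32 and -0.42). The call was also lost after median centring (-0.22), without a minimum on RPKM, without the disease term, and without ST-HSC (-0.34), ST-CML (-0.39), normal KLS- (-0.29) or CML-KLS- (-0.44). Of the 50-base words of its transcript, 54.3% also occur elsewhere in the genome, and how reads with several matches were counted is not given in the sources used here.

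The rule also took in rows that are no structural subunit. Among the 5 rows classed as assembly factors, Ndufaf1, Ndufaf3 and Ndufaf4 rose by 0.64 to 0.71, while Ndufaf2 (0.29, SE 0.19) and Sdhaf1 did not pass the test. Of Cox4nb, Atp5s and Atp5sl, which share a symbol with the complexes but are not structural subunits, none passed, with differences of 0.26, -0.29 and 0.17. In RefSeq, Atp5s carries the symbol Dmac2l and Atp5sl the symbol Dmac2. Across the 5 assembly factors and these 3 rows the levels were 0.770 to 70.1 RPKM, below those of most subunits.

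**Figure D3:**
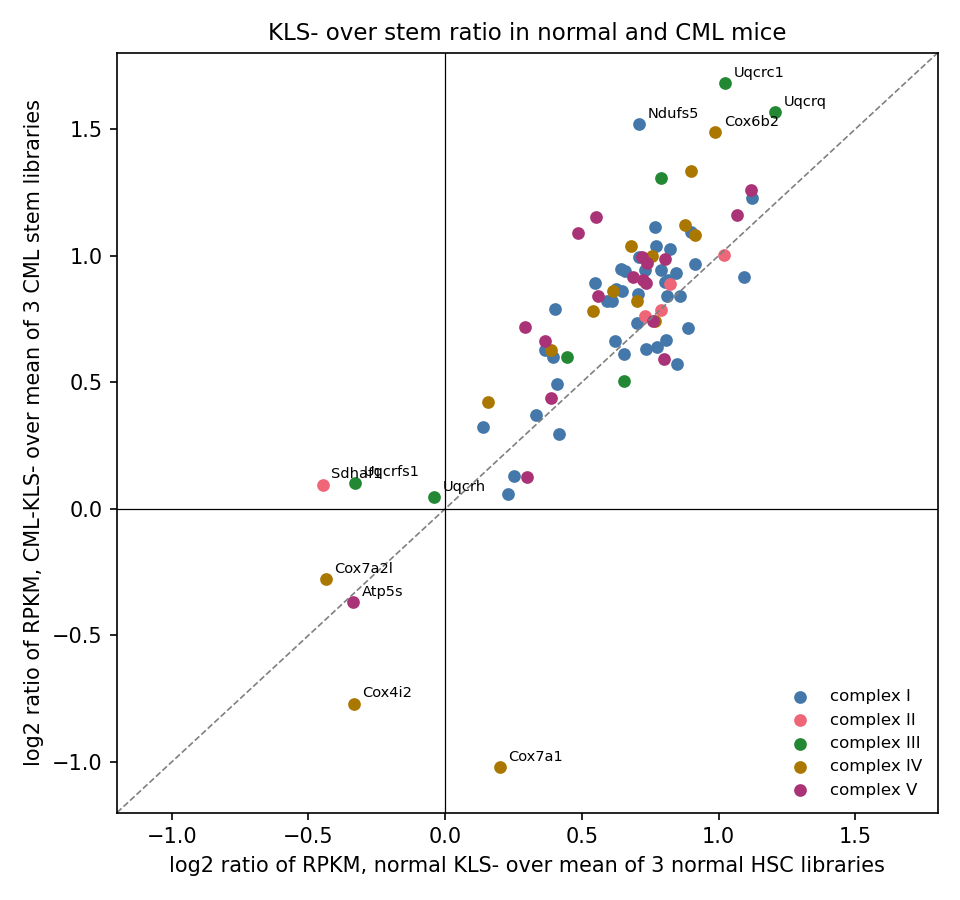
Log2 ratio of RPKM of the KLS- library to the mean of the 3 stem cell libraries in normal mice (horizontal axis) and in CML-affected mice (vertical axis) for 86 of the 87 genes tested, coloured by complex. Cox6a2, which had the highest ratio on the vertical axis and was near 0 in stem cells, is not drawn. The dashed line marks equal ratios, and Uqcrc1, at ratios of 2.03 and 3.20, lies farthest up.

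The rise was seen in both disease states. The median over all rows was 160.0 RPKM in normal KLS- cells against 89.6 to 102 in the normal HSC libraries, and 174 in CML-KLS- cells against 86.9 to 100.1 in the CML stem libraries. A test of whether the effect of CML differed between KLS- and stem cells called 0 of the 87 genes in limma, 2 (Atp5l and Cox6a2) had an unadjusted p under 0.05 (2.30%, against 3.79% of all genes), and 0.0717% of all genes were called. The median of these differences was 0.16 for the 87 genes and 0.03 for all genes, and 67 of the 87 were above 0, against 54.1% of all genes. For complex III the median was 0.36, with 6 of 7 above 0, but with 1 KLS- library in each disease state the test has 3 residual degrees of freedom and no replicate of a KLS- population. Uqcrc1 in CML-KLS- cells was 1.86 times its level in normal KLS- cells, Cox5a 1.84 times and Cox6b2 1.77 times. These 3 ratios were picked after the values were seen, and none of the 3 genes passed the test of this difference.

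Levels of markers of other cell types also differed between the gates. The summed RPKM of 10 erythroid markers was 866 and 1874 in the KLS- libraries against 34.9 to 155 in stem cells, with Hba-a1 and Hba-a2 listed at 0 throughout, and 5 of the 8 tested were called higher. The median level of the 10 overlapped, at 2.59 and 3.37 RPKM in KLS- cells against 0.225 to 9.96 in stem cells. The sum of 8 neutrophil markers was 9490 and 15560 against 246 to 4040 (3 of 8 higher, Mpo, Prtn3 and Ctsg), although the median difference of the 8 was -0.03 and their median level was 52.4 and 278 RPKM in KLS- cells against 2.64 to 267.5 in stem cells. The sum of 5 mast cell and basophil markers was 103 and 86.2 against 4.497 to 31.6 (4 of 5 higher). Their median level was 10.5 and 5.61 RPKM in KLS- cells against 0.1435 to 7.74 in stem cells. The sum of 6 megakaryocyte markers was 93.4 and 59.8 against 155 to 612, with 5 of 6 lower. B-cell, T-cell and endothelial or stromal markers summed to 31.0 to 56.0, 2.23 to 13.9 and 13.1 to 29.7 RPKM over all 8 libraries, with Pax5, Cd3g, Cdh5, Cxcl12 and Col1a1 at or near 0. All 6 cell cycle genes rose, and their sum was 608 and 607 against 155 to 436. The part of these in the difference was not tested.

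Other lists were read against the 22.2% of all genes called higher, and differences between lists were not tested. All 5 carriers and subunits that the symbols miss rose, among them Cycs, the mobile cytochrome c, by 1.67 (SE 0.16, adjusted p = 9.5e-05 from limma), and Cyc1, the cytochrome c1 subunit of complex III, by 0.99 (SE 0.22). Of 16 genes of the TCA cycle and pyruvate dehydrogenase, 14 rose and 0 fell, with a median of 0.73, and of 75 genes of the mitochondrial ribosome 62 rose and 0 fell, with a median of 0.75. Of 22 assembly factors outside the rule 8 rose and 0 fell, with a median of 0.33. Of 77 genes of the cytosolic ribosome 14 rose and 0 fell, with a median of 0.18.

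Genes that are known to regulate mitochondrial biogenesis had a median of 5.74 to 8.45 RPKM in the 8 libraries, and their differences were mixed. The median of mean levels was 118 RPKM for the pathway and 5.11 RPKM for all genes tested. Of 16, 2 rose and 2 fell. Pprc1, a coactivator, rose by 0.61 (SE 0.15), from 4.67 to 6.20 RPKM in stem cells to 8.79 and 8.78, and Ssbp1, the mitochondrial single-strand binding protein, rose by 0.76 (SE 0.13). Ppargc1a, the coactivator PGC-1 alpha, was 0.476 to 0.815 RPKM in stem cells and 0.0535 and 0.0260 in KLS- cells, and fell by 0.65 (SE 0.10, adjusted p = 0.000803 from limma). Gabpb1, a partner of the factor Gabpa, fell by 0.84 (SE 0.15). Nrf1, Gabpa and Yy1, factors known to bind promoters of this pathway, did not pass the test, with differences of 0.16, 0.01 and -0.13 and levels of 5.71 to 14.2 RPKM.

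Promoters of the genes were searched for the motifs of these 3 factors on both strands, in windows of 250 bases before and 50 after the start in RefSeq (GRCm38.p6, not the build of the reads). Of the 91 symbols 74 matched, with 80 promoters. The NRF1 motif, a palindrome of 10 bases that stands in capitals in the Cox6a1 sequence, was in 7.50% of them against 0.971% of all 32851 promoters, the ETS motif CCGGAAG, which Gabpa binds, in 22.5% against 8.86%, and the YY1 motif AAGATGGC in 12 of the 80 against 2.75%. At least 1 of them was in 41.2% against 11.9%. Of the genes with a promoter, 29 of 62 that rose in KLS- cells and 3 of 10 tested that did not rise held a motif, and the median differences of the risen genes with and without one were 0.83 and 0.82. Of other genes with the largest rises, Uqcrc1, Ndufs6 and Ndufb8 held a motif only in the 50 bases after the start. Cox6b2, Atp5g1, Cox5a, Atp5o and Cox7a2 held none in their windows. Below are the 250 bases before the start of Cox6a1 and Uqcr, among the largest rises, of Uqcrh, which did not rise, and of Ndufa3, which was lower in CML, on the strand of the gene with motifs in capitals.
Cox6a1 (chr5:115348959-115349208, minus strand): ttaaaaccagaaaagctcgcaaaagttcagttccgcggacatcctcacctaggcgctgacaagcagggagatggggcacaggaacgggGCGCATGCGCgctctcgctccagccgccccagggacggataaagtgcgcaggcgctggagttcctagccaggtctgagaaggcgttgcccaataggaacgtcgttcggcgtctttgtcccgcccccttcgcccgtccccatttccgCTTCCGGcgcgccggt
Uqcr (chr10:80406822-80407071, minus strand): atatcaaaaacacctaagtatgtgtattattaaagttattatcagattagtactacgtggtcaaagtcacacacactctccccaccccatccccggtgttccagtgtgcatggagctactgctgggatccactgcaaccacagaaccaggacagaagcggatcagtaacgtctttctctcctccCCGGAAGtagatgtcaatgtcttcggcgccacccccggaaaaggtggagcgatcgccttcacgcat
Uqcrh (chr4:116075071-116075320, minus strand): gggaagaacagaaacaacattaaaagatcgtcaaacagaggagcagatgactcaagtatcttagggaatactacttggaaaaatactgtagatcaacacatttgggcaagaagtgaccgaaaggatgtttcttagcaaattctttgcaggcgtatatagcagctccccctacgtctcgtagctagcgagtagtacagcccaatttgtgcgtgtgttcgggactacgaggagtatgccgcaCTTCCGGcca
Ndufa3 (chr7:3617123-3617372, plus strand): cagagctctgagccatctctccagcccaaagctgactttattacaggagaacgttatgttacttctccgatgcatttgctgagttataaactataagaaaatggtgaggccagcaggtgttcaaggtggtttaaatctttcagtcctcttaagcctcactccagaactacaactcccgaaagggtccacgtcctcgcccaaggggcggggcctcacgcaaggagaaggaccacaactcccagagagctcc
Cox6a1 holds an NRF1 and an ETS motif, Uqcr and Uqcrh an ETS motif each, and Ndufa3 none of the 3 in these 250 bases, since its YY1 motif lies in the 50 bases after the start. A motif thus stood both at genes that rose and at one that did not.

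Short transcripts and high levels were common among these genes. Their median exon length was 1287 bases (85 with a gene model) against 3584 for all genes tested, and 528 of all genes tested had a mean above 100 RPKM. Among all genes above 100 RPKM 58.1% rose in KLS- cells, with a median of 0.49, and among the 51 members at that level 94.1% rose, with a median of 0.79. Among all genes under 1 kb of exon 35.2% rose, with a median of 0.15, and among the 32 members of that length 81.2% rose, with a median of 0.78. Across the 85 members, genes that are not independent, length and difference had a Spearman correlation of 0.035. Of 51 members with under 5% of their words elsewhere in the genome 41 rose and 0 fell, with a median of 0.74. For the 15 with 20% or more, such as Atp5g2 (100%), Atp5l (89.4%), Cox5b (62.7%) and Uqcrb (61.5%), the levels are uncertain for the reason given for Cox7a2l.

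Between CML stem cells and normal HSCs the pathway differed little. This comparison asks whether the disease changes it within the stem cell gates (LT and ST pooled, 3 libraries against 3). In limma 1 of the 87 genes was called, lower in CML, against 2.34% of all genes called in either direction, and 12 (13.8%, 1 higher and 11 lower) had an unadjusted p under 0.05, against 12.5% of all genes. The median difference was -0.12 for the 87 genes (quartiles -0.22 and 0.03) and -0.04 for all genes, and 28 of the 87 were above 0, against 42.9% of all genes. Of the 8 erythroid markers tested, 1 was called lower in CML, and the other marker lists held no call. By complex the medians were -0.12, -0.06, -0.06, -0.08 and -0.14 from I to V.

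The gene called was Ndufa3, an accessory subunit of the membrane part of complex I (ENSMUSG00000035674, chr7:3568975-3571765 on the plus strand of mm9). It was 337 and 325 RPKM in LT-HSCs and 298 in ST-HSCs, and 207 and 172 in LT-CML and 161 in ST-CML. No CML stem library reached a normal HSC library, with means of 320.1 ± 19.9 and 180 ± 23.8 RPKM (SD, n = 3 each). The log2 difference was -0.83 (SE 0.14, adjusted p = 0.0232 from limma). It was also lower in CML-KLS- cells (272 RPKM) than in normal KLS- cells (421 RPKM), a ratio of 0.646 beside 0.562 for the stem cells. None of its 50-base words occurs elsewhere in the genome and no other annotated gene overlaps it. The call was lost when any 1 of 5 of the 6 libraries was left out (all but LT-CML replicate 1), with adjusted p of 0.0405 to 0.127 over the 6 fits, and the difference stayed between -0.94 and -0.76.

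All 3 CML stem libraries were below all 3 normal HSC libraries for 13 of the 87 genes (14.9%), against 11.4% of all genes tested, and above them for 2 (2.30%, Ndufa12 and Atp5sl), against 6.92%. In every matched population, KLS- included, 15 genes (17.2%) were lower in CML against 14.9% of all genes, and 5 (5.75%) were higher against 9.41%. For lower levels in CML, the shares of the pathway were near those of all genes.

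Ndufaf2, an assembly factor of complex I, was 64.0 and 61.1 RPKM in LT-HSCs, 51.8 in ST-HSCs and 70.1 in normal KLS- cells, and 50.4 and 29.0 in LT-CML, 25.96 in ST-CML and 38.5 in CML-KLS- cells. Each CML library was below all normal libraries, but the difference of -0.79 (SE 0.25) did not pass (adjusted p = 0.214 from limma). In the fit of all 8 libraries with cell type and disease it was -0.80 (SE 0.16, adjusted p = 0.0235 from limma). Ndufa12, the structural subunit to which Ndufaf2 is related in sequence, went the other way, a gene picked after its values were seen. It was 191 to 203 RPKM in normal HSCs and 232 to 291 in CML stem cells, and 307 and 386 in normal and CML KLS- cells (log2 difference 0.37, SE 0.13, adjusted p = 0.300 from limma). Cox7a2l was 0.707 times as high in CML stem cells (-0.49, SE 0.13, adjusted p = 0.147 from limma) and passed in the fit of all 8 libraries (-0.45, SE 0.11, adjusted p = 0.0432 from limma).

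**Figure D4:**
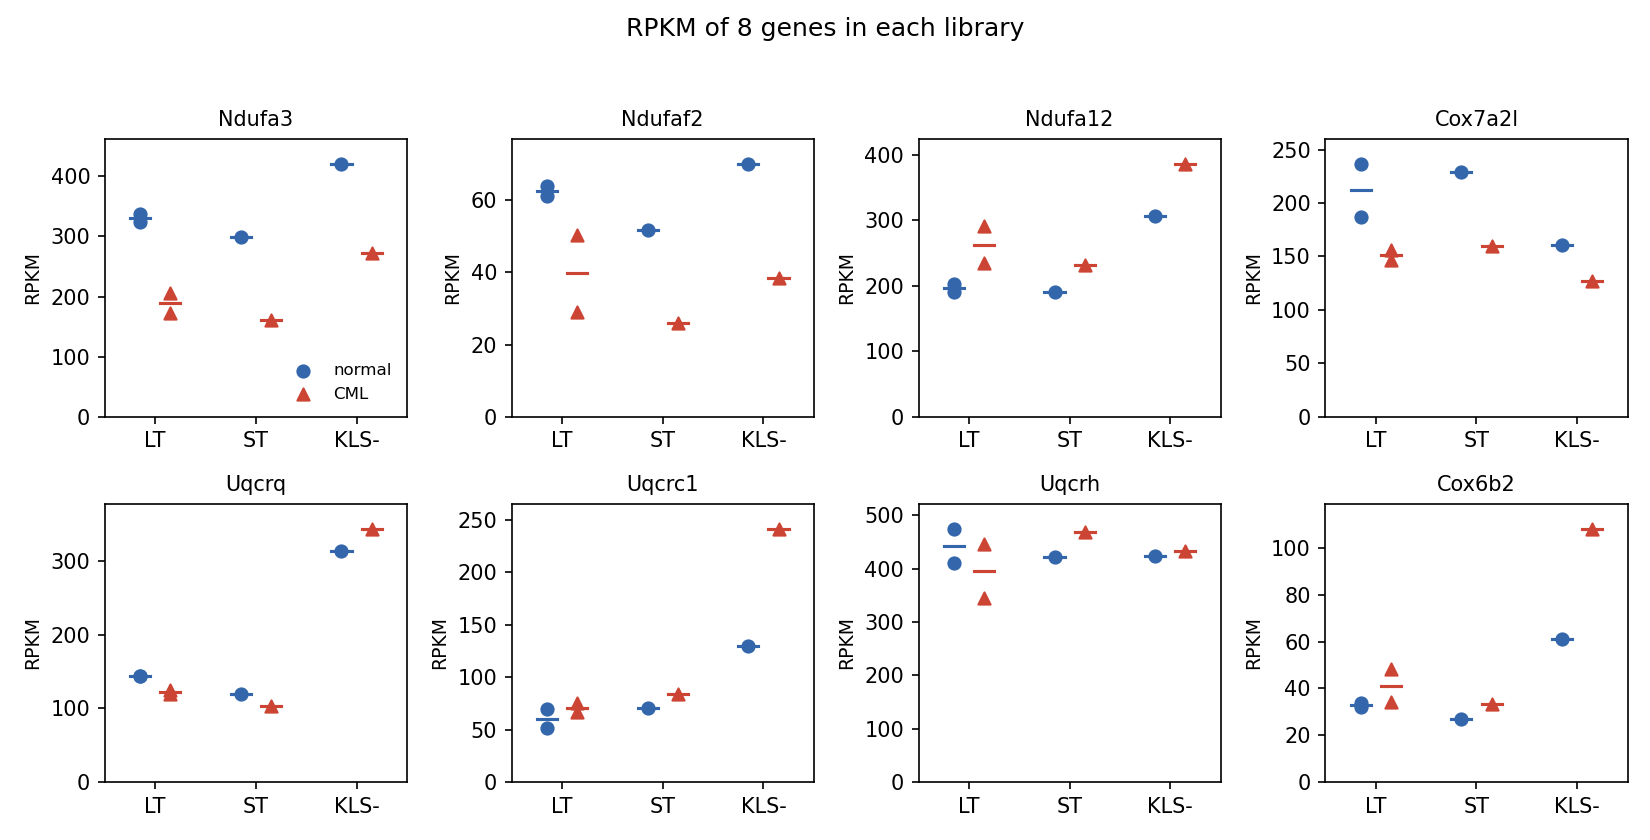
RPKM (vertical axes, starting at 0) of 8 genes in LT, ST and KLS- cells of normal (circles) and CML-affected mice (triangles), 1 point per library, with a bar at the mean. Ndufa3 and Ndufaf2 lie lower in CML in all populations, Uqcrq and Uqcrc1 lie higher in KLS- cells, and Uqcrh is at 345 to 474 RPKM throughout.

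Within the LT gate alone (2 libraries against 2), limma called 0 of the 87 genes and 1.73% of all genes, and 5 genes of the pathway (5.75%, all lower) had an unadjusted p under 0.05, fewer than the 11.6% of all genes. The median was -0.07 for the 87 genes and -0.01 for all genes, and it became 0.04 without LT-CML replicate 2. For Ndufa3 the difference was -0.81 (adjusted p = 0.101 from limma). Among the marker lists, 1 of 5 sorting markers was called higher in LT-CML. Called lower were 2 of 8 erythroid, 1 of 5 B-cell and 1 of 6 megakaryocyte markers. The part of these in the differences was not tested. At the level of complexes the LT-CML mean was 88.8 ± 13.1 RPKM (SD, n = 2) for complex I against 88.8 ± 4.36 in LT-HSCs, and 122 ± 3.54 for complex III against 144 ± 0.424.

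Between ST and LT cells, limma called 0 of the 87 genes and 4.87% of all genes, and 7 genes of the pathway (8.05%, all lower in ST) had an unadjusted p under 0.05, fewer than the 19.6% of all genes. The median was -0.12 for the 87 genes and -0.01 for all genes, and 22 of the 87 were above 0, against 48.9% of all genes. In the same comparison 4 of 6 cell cycle genes were called lower in ST cells. After quantile normalization Atp5k (-0.40) and Atp5g3 (-0.36) passed the test, with adjusted p of 0.0296 and 0.0367 from limma.

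**Figure D5:**
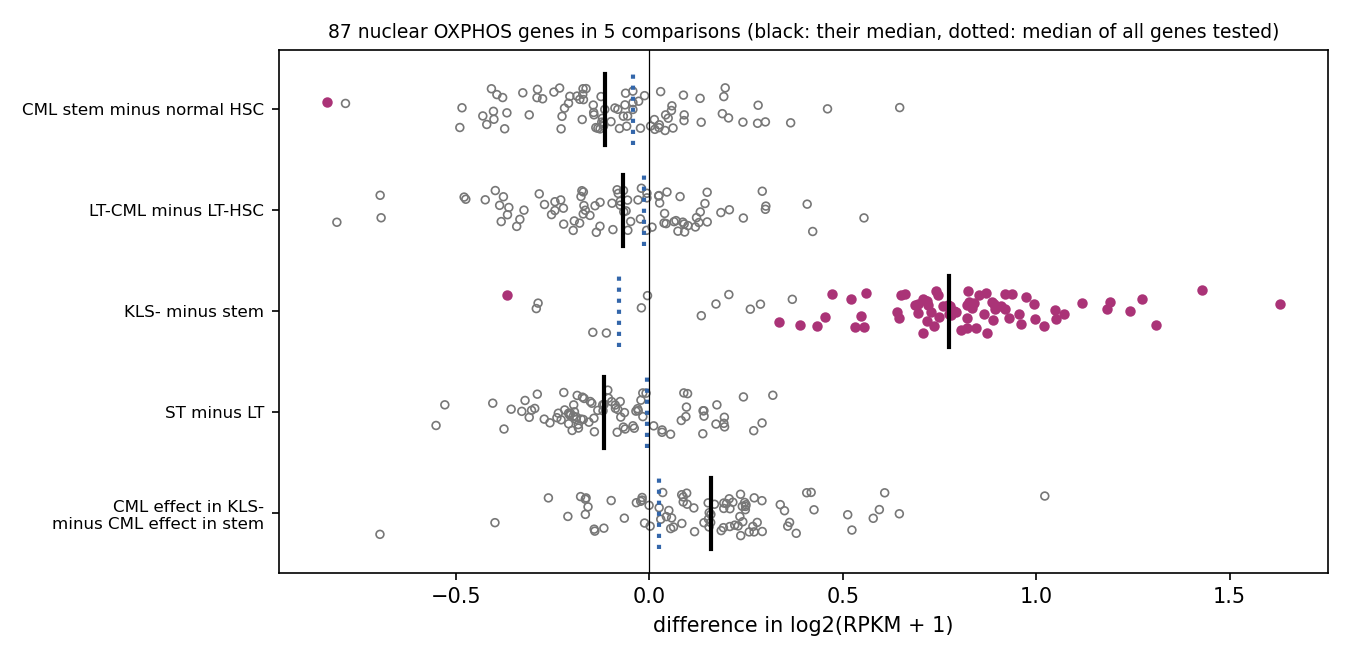
Difference in log2(RPKM + 1) (horizontal axis) of the 87 genes in 5 comparisons, 1 point per gene, with filled points for an adjusted p under 0.05 in limma, a black bar at their median and a dotted bar at the median of all 12561 genes tested. The median is 0.77 between KLS- and stem cells and -0.12 to 0.16 in the other comparisons.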

How the data were processed

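RNA from 8 libraries of sorted mouse bone marrow cells was analysed from the gene values that the authors deposited as RPKM. Per the study's methods the authors made cDNA by oligo-dT priming with an ultra-low-input kit, sequenced paired-end reads of 100 bases and mapped them to mm9 (NCBI Build 37). The gene annotation, the counting rule and the treatment of reads with several matches are not given in the sources used here. RPKM leaves differences in composition between libraries uncorrected. No counts were used. Depth was estimated from the steps between low values with GENCODE M1 exon lengths: in 55.1% of 3500 low genes every value lay within 0.03 of a whole multiple. Of 1802 such genes with an exon length, 630 gave the most frequent scale, on which the estimate rests. Depth limits the genes with few reads, and amplified reads are not independent molecules.

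Libraries were grouped by their labels. A gene entered the tests if its values summed to more than 1 RPKM (12561 genes). The tests used limma 3.58.1 under R 4.3.3 with moderated variances that follow the mean level, on log2(RPKM + 1), a scale that understates changes of low genes. Calls are Benjamini-Hochberg adjusted p under 0.05. CML stem cells were compared with normal HSCs over 6 libraries without a covariate, LT cells in a fit of 6 population means, and KLS-, ST and LT cells in an additive fit of cell type and disease. The steps were tested on simulated data. Copies of a transcript were sought as words of 50 bases in the mm9 genome outside its own locus.

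The members and gene lists were chosen with earlier results of these data known. Named genes were, for each complex, the highest gene and those with the largest differences between KLS- and stem cells in each direction, all genes called in the other comparisons, the 12 largest called differences between KLS- and stem cells, the Sdh subunits, isoform families, rows that are no subunit, genes at 0, Cyc1, Cycs and regulators of mitochondrial genes. Others are named as picked afterwards. Each fit was repeated with another pseudocount, other minima on RPKM, 4 scalings, other covariates and each library left out.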

Additional observations from a re-analysis of the deposited data

How the results depend on the processing

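The count of 75 genes called between KLS- and stem cells ranged from 50 to 76 when each library was left out in turn (50 without the CML-KLS- library), was 44 after quantile normalization and lay between 64 and 75 under the other alternatives. Over 20 settings, 34 genes were called higher in every one, and 7 were called neither higher nor lower in any. The median difference of 0.77 was 0.30 after quantile normalization, 0.43 at equal summed RPKM and 0.93 after median centring, and 0.71 to 0.86 with a library left out. Equal sums moved the median of all genes from -0.08 to -0.28 and the share of higher genes among all calls from 45.6 to 23.2%, and median centring moved them to 0.07 and 62.3%. Relative to all genes the median of the pathway was 0.85 as deposited, 0.70 at equal sums and 0.28 after quantile normalization. The cause was not tested.

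Between CML stem cells and normal HSCs, 1 gene was called as reported, 0 without a minimum on RPKM (Ndufa3, adjusted p = 0.0562 from limma, with more genes tested), 3 in the fit of all 8 libraries (Ndufa3, Ndufaf2 and Cox7a2l) and 0 to 2 with a library left out. Median centring called 1 gene between LT-CML and LT-HSC (Ndufa3). Between ST and LT cells 2 genes were called after quantile normalization and 1 at equal summed RPKM (Atp5k). The difference of CML effects called 0 genes in each setting run.

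No paired analysis was possible because the labels give no replicate numbers that normal and CML libraries share. Few reads stood behind the isoforms near 0, Sdhaf1 (an estimated 38.9 at most in a library) and Ndufs5 (67.6 at most). With 1 library for each ST and KLS- population, their values have no replicate error.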
